A study of Mus musculus with 12 samples.

Results

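The tectorial membrane is a ribbon of extracellular matrix that lies over the organ of Corti and couples sound-evoked motion to the hair bundles of the hair cells. Its non-collagen part is built from large secreted or membrane-anchored glycoproteins made by the supporting cells and by the neighbouring epithelium on the medial side. Examined here were the 6 genes *Tecta*, *Tectb*, *Otog*, *Otogl*, *Otoa* and *Ceacam16*, chosen by name as genes of non-collagen proteins of this membrane and of its attachment. All 6 of 6 were found among the 28686 gene symbols of the count table, and all 6 passed the filter for low counts, which required 5 counts per mouse on average.

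RNA-seq libraries were made from cochlear tissue of 12 mice at postnatal day (P)6, of the strain C57BL/6;129SV by the labels, 6 Sox2CreER/+Jag1fl/fl mutants and 6 Sox2+/+ littermate controls. The study's methods instead name a C57bl6/J background for the CreER line and FVB/n for the floxed line. Both genotypes received tamoxifen at P0 and P1, which activates the CreER recombinase. In the mutants the recombinase is made from the *Sox2* locus, in all subtypes of supporting cell, and removes the floxed part of *Jag1*, which encodes a Notch ligand. The controls carried no CreER allele and, by the study's methods, 1 or both of their *Jag1* alleles could be floxed, so the genotypes differed at *Sox2* as well as at *Jag1*.

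Between 28498549 and 34430252 reads per control and between 31899265 and 36134983 per mutant were counted on genes. Levels are given as CPM, read counts divided by the TMM-adjusted library size and scaled up, and as CPM per kb of exon where genes are compared with each other. *Jag1* itself averaged 102 ± 14.7 CPM over controls and 36.4 ± 6.55 CPM over mutants (SD, n = 6 each), with every mutant below every control (edgeR's quasi-likelihood test, adjusted p = 0.000257). Hair cell markers were present, with *Myo6* at 318 CPM and *Otof* at 69.7 CPM in controls, as were supporting cell and ridge markers, with *Epyc* at 2510 CPM and *Gjb2* at 1319 CPM. Markers of mesenchyme, stria vascularis, neurons, Schwann cells, macrophages and red blood cells were also detected, so the libraries held more than sensory epithelium. Mutants 1 and 4 were the libraries least like the others, with median correlations of 0.967 and 0.962 with the other 11 against 0.972 to 0.982 for the rest.

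Alpha-tectorin (*Tecta*) and beta-tectorin (*Tectb*) form the striated sheet matrix in which the collagen fibrils of the membrane are embedded. Otogelin (*Otog*) and otogelin-like (*Otogl*) are mucin-related proteins of the acellular gels of the inner ear. Otoancorin (*Otoa*) anchors the membrane to the spiral limbus, and CEACAM16 is a secreted protein that interacts with alpha-tectorin and joins the membrane late in its maturation. Loss of function of most of these genes is a known cause of hearing loss.

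On the GRCm38 assembly, with GENCODE M21 gene models, *Tecta* lies on the minus strand at chr9:42329619-42399929 and *Tectb* on the plus strand at chr19:55180733-55196313. *Otog* and *Otoa* lie on the plus strand at chr7:46240987-46311434 and chr7:121081650-121163097. *Ceacam16* lies on the same chromosome on the minus strand, at chr7:19852097-19861299, and *Otogl* on the minus strand at chr10:107760531-107912134. The counts fall on exons, of which the longest set belongs to *Otog* (10.349 kb in 57 merged exons) and the shortest to *Ceacam16* (1.635 kb in 6). Antisense genes cover 304 bases of *Tecta* exon and 380 bases of *Ceacam16* exon, and the sources used here do not say whether counting used strand.

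The start sites of 4 of the 6 genes were found in the RefSeq promoter table (GRCm38.p6). The 250 bases before the start are shown for the 3 genes with the lowest p in the genotype comparison, and for *Otoa*, the other gene with a start site in the table. Capitals mark matches on either strand to any of 5 sets of letters. TGGGAA was searched for RBPJ, the DNA-binding partner of the Notch receptor. The E-box was searched as CACGTG and the N-box, which HES repressors bind, as CACNAG. For SOX factors the letters were ACAANG, and for the TATA box of core promoters they were TATAAA. For *Tecta* the table holds a pair of start sites, and the one nearest the start of the GENCODE gene is shown. The *Otoa* window lies inside the span of the GENCODE gene given above, so it is not upstream of that gene.
Tecta, chr9:42399948-42400197, minus strand: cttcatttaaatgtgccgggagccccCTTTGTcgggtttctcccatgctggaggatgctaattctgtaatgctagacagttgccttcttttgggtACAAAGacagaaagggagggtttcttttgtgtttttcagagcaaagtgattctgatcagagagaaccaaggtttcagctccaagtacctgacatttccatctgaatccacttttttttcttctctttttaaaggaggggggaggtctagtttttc
Tectb, chr19:55180476-55180725, plus strand: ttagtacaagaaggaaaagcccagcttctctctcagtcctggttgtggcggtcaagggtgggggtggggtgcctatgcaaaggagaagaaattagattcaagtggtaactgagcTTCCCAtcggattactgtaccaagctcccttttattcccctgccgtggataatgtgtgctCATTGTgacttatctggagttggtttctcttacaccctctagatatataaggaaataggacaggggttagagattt
Otog, chr7:46240737-46240986, plus strand: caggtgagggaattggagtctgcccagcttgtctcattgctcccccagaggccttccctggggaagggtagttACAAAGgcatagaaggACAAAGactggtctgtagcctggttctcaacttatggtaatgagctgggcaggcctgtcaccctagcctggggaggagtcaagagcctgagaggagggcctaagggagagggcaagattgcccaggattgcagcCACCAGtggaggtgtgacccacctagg
Otoa, chr7:121083174-121083423, plus strand: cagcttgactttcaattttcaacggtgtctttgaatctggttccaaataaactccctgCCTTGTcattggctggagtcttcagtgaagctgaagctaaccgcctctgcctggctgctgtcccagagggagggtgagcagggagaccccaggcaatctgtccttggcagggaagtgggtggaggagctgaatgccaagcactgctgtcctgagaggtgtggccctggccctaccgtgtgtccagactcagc
*Tectb* held the RBPJ letters on the minus strand, beginning 136 bases before the start site. In the other 3 windows shown these letters were not found, while the window of the other *Tecta* start site held them 44 bases after the start. SOX letters were present in each of the 4 windows shown, at -224 and -155 in *Tecta*, -76 in *Tectb*, -177 and -161 in *Otog* and -192 in *Otoa*. The window of the other *Tecta* start site held no SOX letters. Over all 32851 windows of 300 bases in the table, 25.6% held the RBPJ letters and 41.2% the SOX letters. CACNAG was found in *Otog* at -27, and at -236 in the window of the other *Tecta* start site, against 42.5% of all windows. CACGTG (7.15% of all windows) and TATAAA (13.6%) were in none of the 4 windows shown. These matches describe letters only.

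In controls, *Tectb* was among the most abundant messages of the whole tissue. It took between 0.315% and 0.442% of all counts in controls and between 0.254% and 0.384% in mutants, and by raw count it ranked between 11 and 17 of all symbols in controls and between 14 and 22 in mutants. Per length, the control levels ran in the order *Tectb*, *Tecta*, *Otoa*, *Otog*, *Otogl* and *Ceacam16*. *Tectb* was at 1019 ± 114 CPM per kb and *Tecta* at 100.4 ± 22.8, so that in controls the ratio of *Tectb* to *Tecta* per kb lay between 8.73 and 12.8. *Otoa* followed at 39.3 ± 4.99 CPM per kb, *Otog* at 24.1 ± 2.24, *Otogl* at 16.1 ± 4.72 and *Ceacam16* at 1.33 ± 0.223 (SD, n = 6 each). Neighbours in this order did not overlap between control mice, apart from *Otog* and *Otogl*. In mutants *Tecta* and *Otoa* overlapped as well, through mutant 1. *Otog* nevertheless exceeded *Otogl* within each of the 12 mice, by a ratio per kb of at least 1.22 in controls and 1.16 in mutants.

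**Figure D1:**
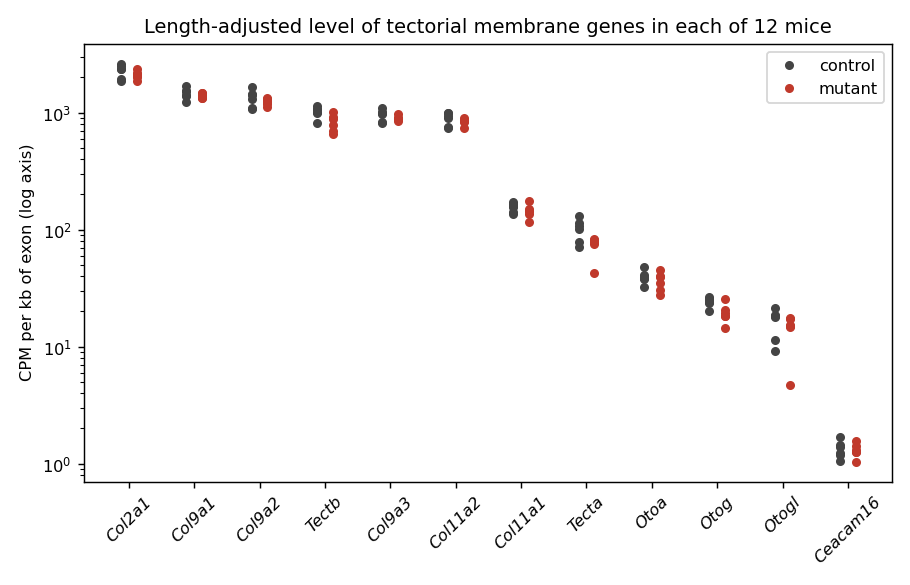
Level per kb of exon of the 6 glycoprotein genes and of the 6 collagen genes of the membrane in each mouse, on a log axis, in order of the control mean, with controls in grey and mutants in red. *Tectb* (1019 CPM per kb in controls) lies among the collagen genes and *Ceacam16* (1.33 CPM per kb) is the lowest of the 12.

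Collagens II, IX and XI make the fibrils of the membrane, and they are also the collagens of cartilage, which surrounds the cochlea at this age. *Col2a1* was at 2280 ± 304 CPM per kb in controls, *Col9a1* at 1460 ± 156 and *Col9a2* at 1334 ± 218. *Col9a3*, at 957 ± 110, and *Col11a2*, at 886 ± 110, lay near *Tectb*, and *Col11a1*, at 155 ± 14.2, lay nearer *Tecta* (SD, n = 6 each).

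Whether deletion of *Jag1* from supporting cells altered these messages was examined by comparing the genotypes. Each of the 6 genes had a lower mean in mutants than in controls, where 9057 of all 18459 genes tested had a negative log2 fold change. However, edgeR, DESeq2 and limma-voom each called 0 of 6 at an adjusted p under 0.05. Over all 18459 genes tested, edgeR called 0.19% (0.0813% as lower), DESeq2 3.35% and limma-voom 0.103%. At an unadjusted p under 0.05, 3 of the 6 were lower in mutants, *Tecta*, *Tectb* and *Otog*, and 0 were higher, where 4.04% of all genes tested were lower and 6.52% were higher. The median log2 fold change of the 6 genes was -0.25, beside 0.00295 over all genes tested. The groups of mice overlapped for each of the 6 genes, while they did not overlap, with mutants lower, for 0.379% of all genes tested (0.997% in either direction). Since these are bulk libraries, fewer cells of a type and less RNA per cell cannot be told apart.

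*Tecta* was at 525, 772 and 978 CPM in the lowest, median and highest control and at 316, 585 and 611 CPM in the lowest, median and highest mutant. All 6 mutants lay below the control median, 1 of them below every control, while the other 5, between 556 and 611 CPM, lay above the lowest control (525 CPM) and below 4 of the 6 controls. Means were 744 ± 169 CPM for controls against 543 ± 113 CPM for mutants (SD, n = 6 each), or 73.0% of the control level. The log2 fold change was -0.45 (standard error 0.17, 95% interval -0.83 to -0.08, adjusted p = 0.321 from edgeR, exact permutation p = 0.0433). Without mutant 1 it was -0.34 (unadjusted p = 0.0256, adjusted p = 0.285), and without control 5, the highest, the unadjusted p was 0.0542.

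*Tectb* was at 3115, 3965 and 4399 CPM in the lowest, median and highest control and at 2521, 3184 and 3855 CPM in the corresponding mutants. Of the mutants, 6 of 6 lay below the control median and 3 of 6 below every control. Controls averaged 3893 ± 435 CPM against 3159 ± 509 CPM for mutants (SD, n = 6 each), or 81.1% of the control level. Its log2 fold change was -0.30 (standard error 0.11, 95% interval -0.54 to -0.07, adjusted p = 0.278 from edgeR, exact permutation p = 0.0303). The 2 lowest mutants were mutant 2 and mutant 1, at 2521 and 2689 CPM.

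*Otog* was at 207, 254 and 272 CPM in the lowest, median and highest control and at 149, 195 and 265 CPM in mutants. Here 4 of 6 mutants lay below every control, and mutant 4, at 265 CPM, lay above the control median. Means were 249.6 ± 23.2 CPM for controls against 200.3 ± 38.2 CPM for mutants (SD, n = 6 each), or 80.3% of the control level. The log2 fold change of *Otog* was -0.32 (standard error 0.11, 95% interval -0.56 to -0.08, adjusted p = 0.260 from edgeR, exact permutation p = 0.0281). Without mutant 4 it was -0.41 (unadjusted p = 0.000633, adjusted p = 0.0839), the lowest adjusted p of any of the 6 genes in any fit that left out a mouse. Without mutant 1, the lowest mutant, the edgeR log2 fold change was -0.24 (unadjusted p = 0.0228, adjusted p = 0.273).

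**Figure D2:**
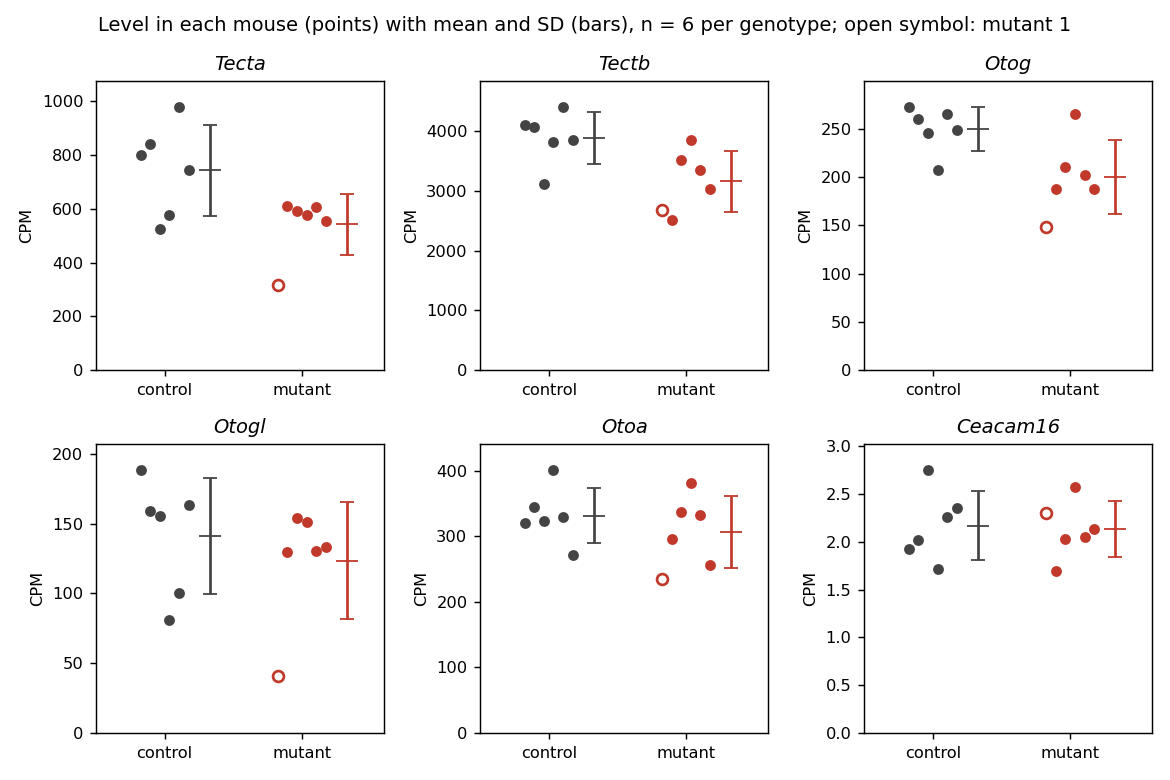
CPM of each of the 6 genes in each of the 12 mice, with the mean and SD of each genotype beside the points, axes starting at 0 and mutant 1 drawn as an open symbol. For *Otog*, 4 of 6 mutants lie below the lowest control, and for *Tecta* and *Otogl* mutant 1 (316 and 40.9 CPM) lies apart from the other mutants.

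*Otogl* varied more between mice than the others, with a coefficient of variation of 29.3% in controls and 33.9% in mutants. Its control levels were 80.9, 157 and 188 CPM and its mutant levels 40.9, 132 and 154 CPM (lowest, median and highest). Controls 4 and 5, at 80.9 and 100.1 CPM, and mutant 1, at 40.9 CPM, lay below the other 9 mice. The log2 fold change was -0.19 (standard error 0.30, 95% interval -0.85 to 0.46, edgeR adjusted p = 0.917), and without mutant 1 it was -0.01. The interval is wide enough to hold the difference seen in *Otog*, its closest relative, and a difference in the opposite direction.

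*Otoa* was at 271, 326 and 401 CPM in the lowest, median and highest control and at 235, 315 and 381 CPM in mutants, with 3 mutants above and 3 below the control median. Controls averaged 332 ± 42.1 CPM against 307 ± 54.6 CPM for mutants (SD, n = 6 each). Its log2 fold change was -0.11 (standard error 0.12, 95% interval -0.36 to 0.14, edgeR adjusted p = 0.848).

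*Ceacam16* was low, with 54 to 88 reads counted in a mouse. Its levels were 1.71, 2.14 and 2.75 CPM in the lowest, median and highest control and 1.70, 2.09 and 2.57 CPM in mutants, so the genotypes covered the same range. Controls averaged 2.17 ± 0.365 CPM against 2.13 ± 0.291 CPM for mutants (SD, n = 6 each). The fitted log2 difference was -0.03 (standard error 0.15, 95% interval -0.34 to 0.29, edgeR adjusted p = 0.985). Counting error alone gives a coefficient of variation of 11.9% at this depth, against 16.8% measured between controls and 13.7% between mutants, so for this gene depth sets much of the precision. For the other 5 genes counting error was at most 1.51%, and the spread between mice was between 9.29% and 33.9%.

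**Figure D3:**
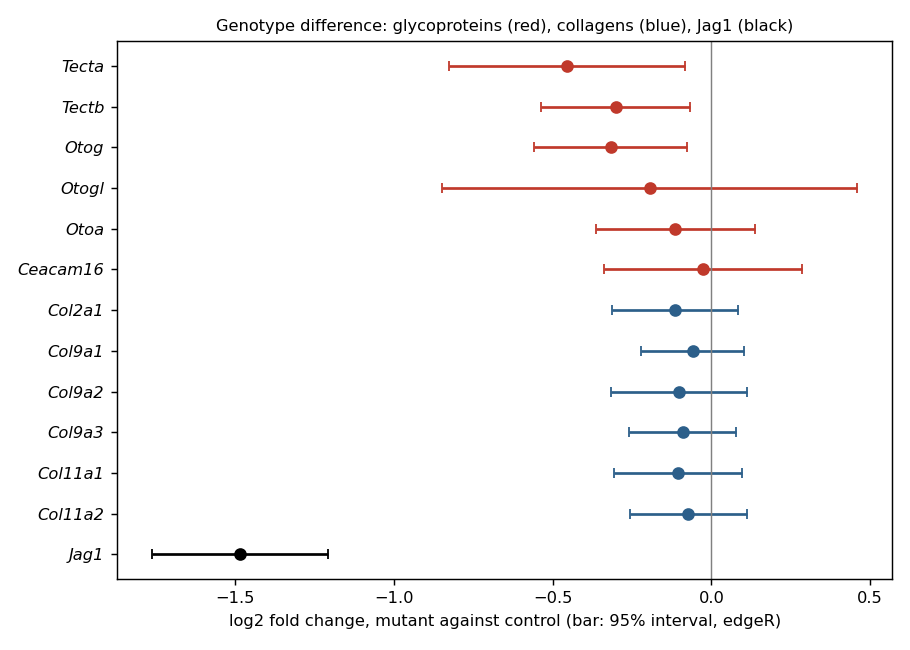
Log2 fold change of mutants against controls with its 95% interval from edgeR for the 6 glycoprotein genes in red, the 6 collagen genes of the membrane in blue and *Jag1* in black. The intervals of *Tecta*, *Tectb* and *Otog* lie below 0 before adjustment for the 18459 genes tested, and those of the other 3 genes and of all 6 collagens span 0.

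That 3 of the genes had an unadjusted p under 0.05 and 3 did not is no evidence that they differ from each other, so the ratio of each pair was compared within mice. Over 15 pairs, the smallest exact permutation p was 0.0455, for *Otog* against *Ceacam16*, and the smallest adjusted p was 0.379. The log2 ratio of the CPM of *Tecta* to *Otoa* was 1.14 in controls and 0.81 in mutants (exact permutation p = 0.134, adjusted p = 0.379). The ratio of *Tectb* to *Otog* differed least between genotypes, with a log2 ratio of 3.96 in controls and 3.98 in mutants (exact permutation p = 0.812). The genes could therefore not be separated by their response at this number of mice.

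All 6 collagen genes also had a mean slightly below that of controls, with log2 fold changes between -0.11 and -0.06 and a median of -0.10. Of all 18459 genes tested, 9057 had a negative log2 fold change. edgeR, DESeq2 and limma-voom called none of the 6 collagen genes at an adjusted p under 0.05. In edgeR 0 of the 6 had an unadjusted p under 0.05, where 10.6% of all genes tested did. *Col2a1* averaged 21077 ± 2811 CPM over controls against 19481 ± 1576 CPM over mutants (SD, n = 6 each, log2 fold change -0.11, 95% interval -0.31 to 0.08, edgeR adjusted p = 0.786).

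Other proteins of the apical gels, and of the attachment of hair bundles to them, gave 0 of 8 genes with an adjusted p under 0.05 in edgeR or DESeq2. *Strc*, which encodes stereocilin, the protein that links outer hair cell stereocilia to the membrane, averaged 16.0 ± 3.19 CPM over controls against 13.2 ± 3.51 CPM over mutants (log2 fold change -0.27, edgeR adjusted p = 0.643). *Otop1*, a proton channel needed for otoconia, averaged 0.501 ± 0.353 and 1.36 ± 0.954 CPM (SD), the only gene of the list with an unadjusted p under 0.05 (0.0444, edgeR adjusted p = 0.450). The list held the otoconial protein gene *Oc90* at 893 CPM in controls. Of 22 relatives of the 6 genes found in the table, with zona pellucida, mucin, mesothelin or CEACAM domains, 15 passed the filter and 0 had an adjusted p under 0.05. *Eng*, which encodes the zona pellucida domain protein endoglin of blood vessels, was the only relative with an unadjusted p under 0.05 (log2 fold change -0.30, edgeR adjusted p = 0.224), and *Tgfbr3* came next, with a log2 difference of 0.18 (edgeR adjusted p = 0.481).

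Among genes known for a part in the development of the membrane, genes of thyroid hormone signalling, the protease hepsin (*Hpn*) and the transcription factors *Emx2*, *Pax2* and *Gata3* were examined. Of the 7 of 8 that passed the filter, 0 had an unadjusted p under 0.05. The smallest p belonged to *Hpn* (24.4 CPM in controls, log2 fold change -0.18, edgeR adjusted p = 0.560) and to *Dio2*, the deiodinase that makes active thyroid hormone (639 CPM in controls, log2 fold change -0.26, edgeR adjusted p = 0.596).

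The cells that make these proteins were followed by 14 markers of the greater epithelial ridge and of supporting cells. Their summed level lay between 4595 and 5363 CPM in controls and between 4311 and 5366 CPM in mutants. Most of this sum came from *Epyc* (2510 CPM in controls) and *Gjb2* (1319 CPM), so it says little about the other markers. By staining, the study found a loss of Hensen's cells, a type of supporting cell, in mutants at P6. Of the 14, 10 had a negative log2 fold change, as had 9057 of all 18459 genes tested. At an unadjusted p under 0.05, 2 of the 14 were lower, where 4.04% of all genes tested were lower. These were *Sox2* (log2 fold change -0.45, edgeR adjusted p = 0.143), of which the mutants carry a CreER allele, and *S100a1* (log2 fold change -0.32, edgeR adjusted p = 0.276). Below every control lay 2 mutants for *Sox2* and 5 for *S100a1*. DESeq2 called *Sox2* (adjusted p = 0.0349) and no other of the 14. *Epyc*, an abundant message of the ridge, ran from 2068 to 2913 CPM over controls and from 2247 to 2910 CPM over mutants, so the genotypes overlapped almost fully (log2 difference -0.01, edgeR adjusted p = 0.993).

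Markers of several other cell types differed between genotypes before adjustment. At an unadjusted p under 0.05 in edgeR, 6.52% of all genes tested were higher and 4.04% were lower. Of 9 Schwann cell markers, 8 had an unadjusted p under 0.05 and were higher in mutants, with sums of 413 to 1347 CPM in controls and 1111 to 5929 CPM in mutants. Of 10 neuron markers 9 were higher, with sums of 103 to 246 CPM and 136 to 1294 CPM. Among these 9, *Prph* was higher in the mean through 1 mutant at 155 CPM. Its median was 0.888 CPM in mutants and 0.927 CPM in controls (exact permutation p = 0.649). The study counted spiral ganglion neurons per area at P6 and found no significant difference between genotypes. Of 8 macrophage markers 5 were lower, with sums of 288 to 355 CPM and 234 to 306 CPM. In edgeR 0 of the markers of these cells passed after adjustment, beside 0.19% of all genes tested. DESeq2 called 8 Schwann cell, 7 neuron and 1 macrophage marker, beside 3.35% of all genes tested. None of the markers of these cells was at 0 in any mouse. The 2 mutants lowest in *Tectb*, mutants 1 and 2, had the highest Schwann cell sums, 5929 and 4485 CPM. Mutant 2 was the highest mutant in *Tecta* (611 CPM). Mutant 4, with the highest neuron sum (1294 CPM), was the highest mutant in *Tectb* (3855 CPM) and *Otog* (265 CPM). These mice were picked after their values were seen. When scores of both lists entered the fit, the log2 differences of *Tecta*, *Tectb* and *Otog* were -0.49, -0.22 and -0.34, with unadjusted edgeR p of 0.106, 0.180 and 0.0470. For the other lists at an unadjusted p under 0.05, 1 of 11 hair cell markers was higher, 1 of 8 mesenchyme and 1 of 5 red blood cell markers were lower, and 0 of 8 stria vascularis markers passed. The shares over all genes tested were again 6.52% higher and 4.04% lower. The hair cell marker was *Pvalb* (log2 fold change 1.42, edgeR adjusted p = 0.146). DESeq2 called it (adjusted p = 0.0263) and no other marker of these lists. The part of all these cells in the differences of the 6 genes was not tested.

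How the 6 genes varied together between mice was examined after the genotype mean was subtracted, over 12 mice and 15 pairs, with permutation within genotype. By Pearson's r, *Otog* and *Otogl* were the closest pair (r = 0.770, permutation p = 0.00648, adjusted p = 0.0972, and rho = 0.783, permutation p = 0.00512, adjusted p = 0.0384), with r = 0.621 when mutants 1 and 4, the farthest from the median of *Otog*, were left out. Without mutant 1 alone, r of this pair was 0.578. *Tectb* and *Otog* were the closest by Spearman's rho, at 0.832 (permutation p = 0.00374, adjusted p = 0.0384) and an r of 0.689 (permutation p = 0.0228, adjusted p = 0.145), and r was 0.924 without control 3 and mutant 2. For *Tectb* and *Otog*, r was 0.360 over controls and 0.824 over mutants, so it too depends on the mice included. *Tecta* and *Tectb*, the partners of the sheet matrix, had r = 0.603 (permutation p = 0.0444, adjusted p = 0.167) and rho = 0.524 (permutation p = 0.0907, adjusted p = 0.302). Without mutant 1 and control 3, the farthest from the median of *Tecta*, r was 0.226. It was 0.535 without mutant 1 alone, 0.895 over controls and 0.414 over mutants, so its size depends on the mice included. For the other 12 pairs the adjusted p was at least 0.145 for r and 0.302 for rho.

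**Figure D4:**
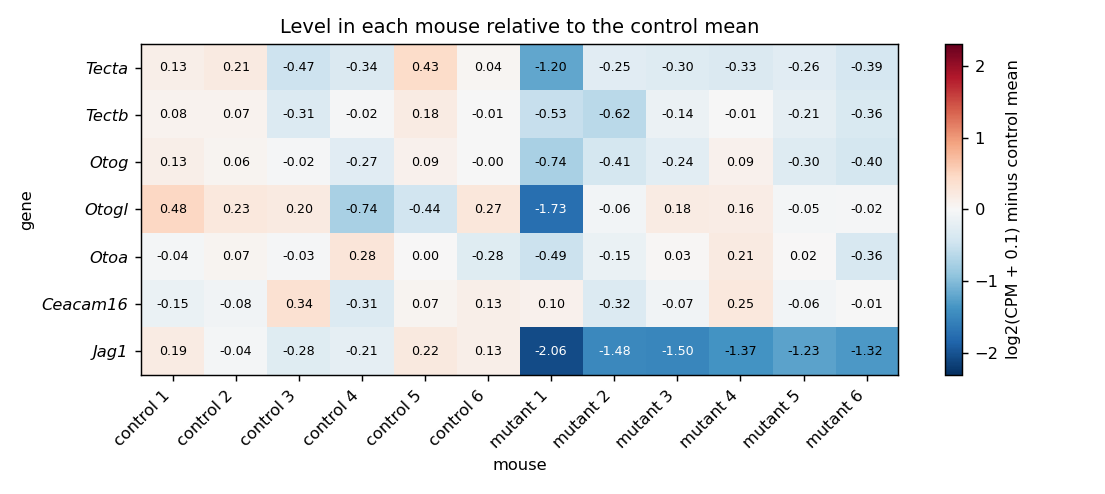
Level of each of the 6 genes and of *Jag1* in each mouse, as log2(CPM + 0.1) minus the control mean, with blue for lower and red for higher. Mutant 1 has the lowest value of *Tecta* (-1.20), *Otog* (-0.74), *Otogl* (-1.73), *Otoa* (-0.49) and *Jag1* (-2.06), whereas its *Ceacam16* (0.10) lies near the controls.

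Mutant 1 was thus the lowest of the 12 mice for 4 of the 6 genes and also for *Jag1*, at 24.2 CPM. The genes that followed each member most closely between mice of the same genotype were looked up among 13059 candidates that averaged 100 or more counts, by Pearson's r over the 12 mice, as a description. For *Tecta* the closest were *Cdh4* (r = 0.923), *Sema3a* (r = 0.913) and *Jag1* (r = 0.899). The r of *Tecta* with *Jag1* was 0.879 over the 6 controls, 0.923 over the 6 mutants and 0.798 over all mice without mutant 1. These values come from the mice by which *Jag1* was picked, so they are no separate evidence of a relation. How high the top r among 13059 unrelated candidates would be was not worked out. *Tectb* was closest to *Cpa6* (r = 0.909), *Nkain1* and *Pkp2*, and *Otog* to *Nrxn3* (r = 0.929), *Cadps2* and *Osbpl10*. *Otogl* had the closest followers of all, *Wnk1* (r = 0.977), *Spata13* (r = 0.977) and *D630036G22Rik*, which stayed at 0.937 or above without mutant 1. *Otoa* was closest to *Kcnj15* (r = 0.902), *Esyt3* and *Wscd2*, and *Ceacam16* to *Sh2d6* (r = 0.857), *Cables2* and *Slc25a35*. The 6 lists of 3 genes shared no gene, and only *Jag1* among these 18 genes passed in edgeR after adjustment.

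**Figure D5:**
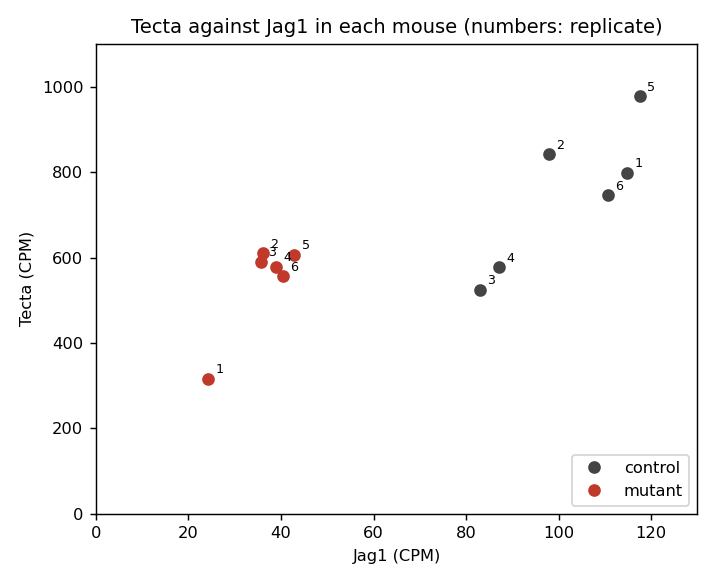
CPM of *Tecta* against CPM of *Jag1* in each mouse, with controls in grey, mutants in red and numbers giving the replicate. *Jag1* was picked by its r with *Tecta* in these same mice. Within controls *Tecta* runs from 525 to 978 CPM as *Jag1* runs from 83.0 to 118 CPM, and among mutants mutant 1 is lowest in both (24.2 CPM of *Jag1* and 316 CPM of *Tecta*).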

How the data were processed

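RNA-seq was performed on 6 mutant and 6 control cochleae, numbered as in the sample labels. The values are unnormalized read counts, deposited by the authors as a table of gene symbols by library. The submitters' processing notes name Trimmomatic 0.32, STAR 2.4.2a, HTSeq 0.9.1, DESeq2 1.10.1 and GRCm38.p4. The annotation release and strand setting are not given in the sources used here. The authors' table of their own DESeq2 comparison (means, fold changes, errors, statistics and p-values) was not used.

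The 18459 symbols averaging 5 or more counts over the libraries were compared with edgeR 4.0.16 (TMM, robust quasi-likelihood F-test, Benjamini-Hochberg over all genes tested, threshold 0.05), in R 4.3.3. DESeq2 1.42.0 and limma-voom (limma 3.58.1) were alternatives. The standard error is the fold change divided by the square root of F. For single genes, log2(CPM + 0.1) was in addition tested by exact permutation (two-sided) over 924 divisions of the mice, with 0.00216 as the smallest p. Correlations used 100000 permutations. Lengths are exon unions of GENCODE M21.

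The members and lists were chosen with earlier results of these data known. Named are the 6 genes, *Jag1*, the collagens, the 2 genes of each other list with the smallest p where none was called, and the 3 closest genes of each member. Markers and abundant genes named otherwise were chosen after their values were seen, as were the pair ratios. Replicate numbers were not treated as pairs in the reported fit. No column of the count table was left out.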

Additional observations from a re-analysis of the deposited data

Results flagged for a closer look

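Of 46 groups of 6 values examined, 4 held a mouse set apart from the rest by a gap past Dixon's critical value for 6 samples, and chance sets apart about 1 group in 20. In mutants, *Tecta* was at 316 CPM in mutant 1, where the other 5 were between 556 and 611 CPM. In the same mouse *Otogl* was at 40.9 CPM, below the other mutants, of which the highest was at 154 CPM. *Col11a2* was at 5092 CPM in mutant 3, below the other mutants at 5767 to 6148 CPM. The summed level of 8 markers of the stria vascularis was 1421 CPM in control 4, where the other controls were between 1782 and 1963 CPM.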

How the results depend on the processing

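The count of the 6 genes with an adjusted p under 0.05 was 0 in the reported fit and in all 23 alternatives, and so was that of the 6 collagen genes. *Tecta*, *Tectb* and *Otog* kept their direction in all 23, with log2 fold changes of -0.54 to -0.33, -0.37 to -0.22 and -0.41 to -0.24, and had an unadjusted p under 0.05 in 21, 22 and 23 of them. Of all genes tested, 35 were called, against 619 with DESeq2, 19 with limma-voom, 57 without a filter, 131 with the replicate number as a block, 1 with the neuron and Schwann cell scores, 70 without mutants 1 and 4 (an alternative added after the data were examined) and 14 to 356 with 1 mouse left out. *Jag1* had an adjusted p of 0.0752 with the scores. With the scores, signs turned for *Otoa* (0.14), *Col9a1* (0.016), *Col9a2* (0.10), *Col9a3* (0.024) and *Col11a2* (0.034), and that of *Ceacam16* turned without control 3 (0.053) or mutant 2 (0.032), over a range of -0.086 to 0.053 with 1 mouse left out. The cause was not tested. The block moved no call among the 6 genes (*Tecta* -0.45, *Tectb* -0.31, *Otog* -0.33). Deviations of mice with the same number correlated between -0.32 and 0.50, which showed no uniform pairing by number. Whether some of these mice shared a litter or a batch was not tested. A pseudocount of 1 CPM left the permutation p of each of the 6 genes on its side of 0.05. The spread between mice, and for *Ceacam16* also depth, limits what could be detected.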
